A study of Sus scrofa with 4 samples.

Results

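The genes described here are 44 genes that mark or arm macrophages and neutrophils, followed in lung cells of pigs that carry a green fluorescent reporter of the gene LGR5. The members were chosen by gene name, and 40 of the 44 had a row among the 29263 genes counted in each library. CYBB was found under its other pig name, GP91-PHOX, and LCN2 under the identifier ENSSSCG00000005638, while ADGRE1, FCGR3A, CSF2RA and S100A9 matched no row and were not analysed here. The list also holds FLT3 and BATF3, which are better known from dendritic cells and their precursors. All libraries came from lung of pigs with the LGR5-H2B-GFP knock-in, in which green fluorescent protein fused to a histone reports LGR5, a receptor for R-spondins. Lung pieces were minced, rinsed to wash out blood and immune cells, digested to single cells, cleared of red cells by lysis where adult, and sorted after dead cells were excluded with propidium iodide. The group GFP-HI (2 libraries, biological replicates 1 and 2) is the bright fraction and the group GFP-NEG (2 libraries, biological replicates 1 and 2) the fraction without fluorescence. No group received a treatment and no group lacks the knock-in. The protocol covers adult and fetal lung and names antibodies against EPCAM and NGFR, without saying which stage or gate applies to these libraries. The only word on stage is in the name of the deposited comparison table, which speaks of adult pig beside a code that is not explained. GFP-NEG is defined by the absence of fluorescence, not by a marker of any cell type, and a histone-bound reporter protein can outlast the transcript that it reports.

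Macrophages take up particles, dying cells and surfactant in the airspaces and the lung interstitium, and they depend on the growth factor receptor CSF1R and on the transcription factor PU.1, encoded by SPI1. Neutrophils are short-lived granule-bearing cells of the blood that depend on CSF3R and enter the lung in inflammation, with a pool held in its capillaries. Both cell types carry Fc receptors that signal through small adaptor proteins, and both kill microbes with an NADPH oxidase.

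Depth differed between the groups. The GFP-HI libraries held 24200550 and 24689986 counts and the GFP-NEG libraries 6292253 and 7045652, a ratio of the mean totals of 3.67. Levels are therefore given as CPM, the count scaled to a common library size by the library total and its TMM factor. Each count was worth 0.0453 and 0.0496 CPM in the GFP-HI libraries and 0.155 and 0.110 CPM in the GFP-NEG libraries. Counts and CPM below are listed in the order GFP-HI replicate 1, GFP-HI replicate 2, GFP-NEG replicate 1, GFP-NEG replicate 2. SFTPC, the surfactant gene of alveolar type 2 cells, was present in all 4 libraries (1808, 3432, 1940 and 566 counts).

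Most macrophage and neutrophil genes were lower in the LGR5-reporter-bright cells, and none was called higher. Of the 39 members that could be tested, 24 fell in GFP-HI (61.5%), with 0.05 as the threshold on the Benjamini-Hochberg adjusted p from edgeR's quasi-likelihood test over 19682 genes, against 27.6% of all tested genes. The count of members higher in GFP-HI was 0, against 8.35% of all tested genes. It was also 0 at an unadjusted p under 0.05 and 0 by DESeq2, which called 1354 of 24178 genes higher at the adjusted threshold. The median log2 fold change of the 39 members was -2.13, beside -0.25 for all tested genes. The groups did not overlap, with GFP-HI lower, in 25 members, against 42% of all tested genes, and with GFP-HI higher in 0, against 27.7%. The summed level of the members was 1297 and 1752 CPM for GFP-HI, against 7605 and 4826 CPM for GFP-NEG. In sorted bulk samples a smaller share of macrophages or neutrophils and less of these transcripts per cell cannot be told apart. With the GFP-HI counts thinned to the GFP-NEG depth, 24 members were again lower, and all 24 were the same genes. Of all 16493 genes tested in that fit, 3690 were lower. In the authors' deposited table, 23 of 39 members were lower in GFP-positive cells and 0 higher at an adjusted p under 0.05, against 11.2% and 8.2% of its genes. Its member fold changes and adjusted p-values match those of the DESeq2 fit above, so it is not a separate test. That fit called 24.9% of its 24178 genes lower. The deposited table lists fewer genes, with 1825 lower against 6024 in that fit, so its 11.2% depends on which genes were listed.

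**Figure D1:**
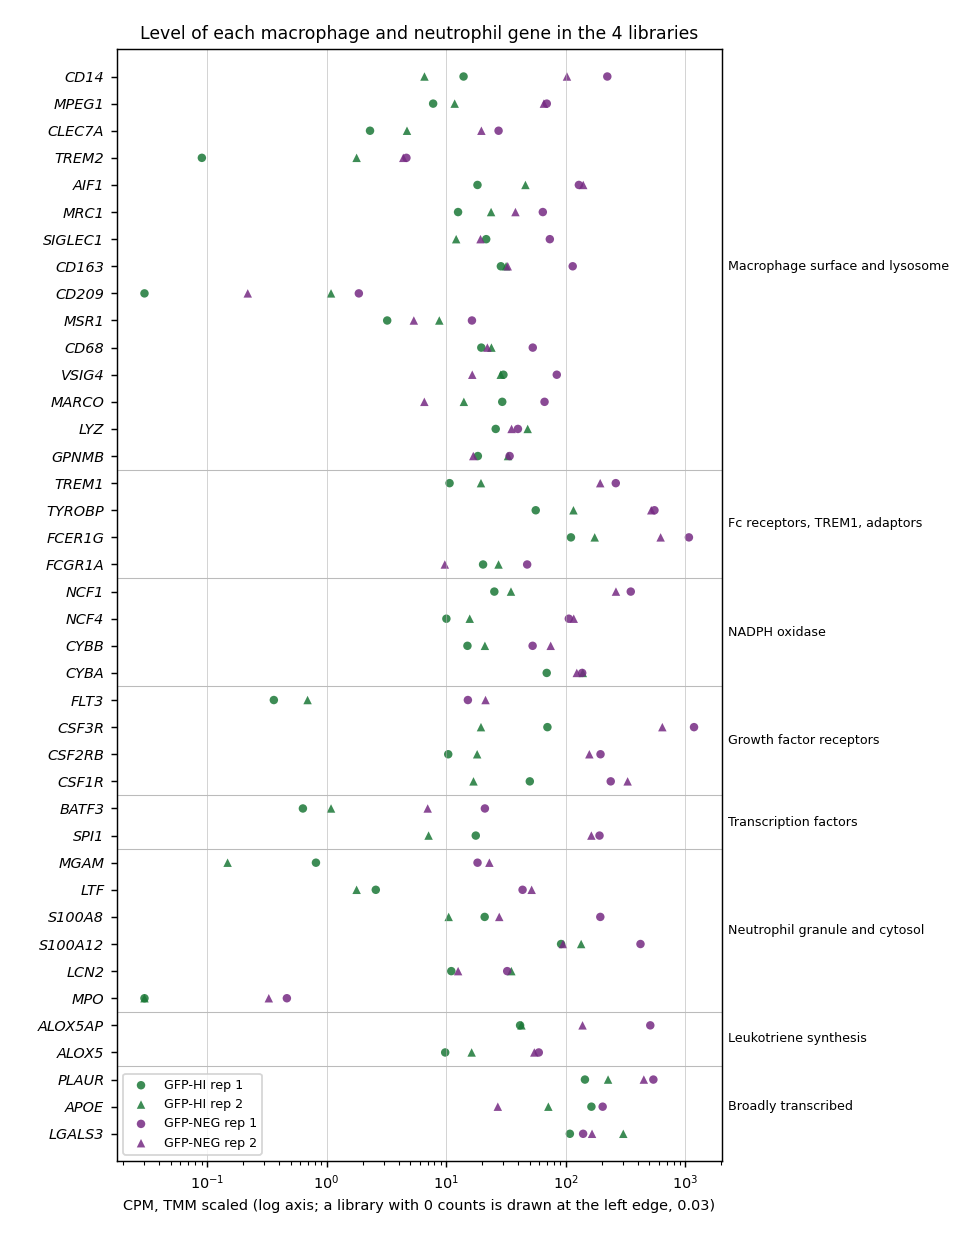
Level of each of the 40 members with a row, in CPM on a log axis, 1 point per library (green GFP-HI, purple GFP-NEG, circles replicate 1, triangles replicate 2), grouped by role. The purple points lie to the right of the green ones for 25 of the 39 tested genes, whereas both colours mix for genes such as MSR1, VSIG4, MARCO, APOE and LGALS3.

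The receptors for myeloid growth factors fell in all 4 tested cases. CSF3R, the receptor for granulocyte colony-stimulating factor that neutrophils depend on, had 1554, 395, 7636 and 5876 counts. That is 45.0 ± 35.9 CPM for GFP-HI against 915 ± 383 CPM for GFP-NEG (SD, n = 2 per group), a log2 fold change of -4.35 ± 0.83 (SE; edgeR adjusted p = 6.1e-06). The GFP-HI replicates differed from each other, but the higher one (70.4 CPM) was far below the lower GFP-NEG library (644 CPM). CSF1R, which binds both macrophage colony-stimulating factor and interleukin 34, had 1107, 342, 1535 and 3010 counts, or 33.6 ± 23.5 against 284 ± 64.8 CPM, and fell by 3.08 ± 0.64 on the log2 scale (edgeR adjusted p = 3.5e-05). Its GFP-HI level was 50.2 CPM in replicate 1 and 17.0 CPM in replicate 2. Without GFP-HI replicate 2 its fold change was -2.40 and no longer past the threshold. CSF2RB, the shared signalling chain of the GM-CSF, interleukin 3 and interleukin 5 receptors, had 230, 367, 1261 and 1440 counts and fell by 3.63 on the log2 scale. FLT3, a receptor of dendritic cell precursors, had 8, 14, 98 and 195 counts and fell by 5.10, the second largest change among the members.

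Both transcription factors on the list fell. SPI1, which encodes PU.1, had 391, 144, 1237 and 1497 counts, or 12.4 ± 7.48 against 178 ± 19.8 CPM (SD, n = 2). It fell by 3.84 ± 0.61 on the log2 scale (edgeR adjusted p = 3.7e-08), and the groups were fully apart. BATF3, a factor of cross-presenting dendritic cells, had 14, 22, 136 and 64 counts and fell by 4.01 ± 0.86 (edgeR adjusted p = 5.3e-05).

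The signalling adaptors and TREM1 fell as well. TYROBP (DAP12), an adaptor of many activating myeloid receptors, had 1241, 2345, 3564 and 4746 counts, or 86.2 ± 42.4 against 537 ± 23.4 CPM (SD, n = 2), and fell by 2.64 ± 0.71 on the log2 scale (edgeR adjusted p = 0.0010). FCER1G, the common gamma chain of Fc receptors, had 2445, 3530, 6920 and 5684 counts and fell by 2.57. TREM1, a receptor that amplifies inflammatory signals in neutrophils and monocytes, had 236, 395, 1692 and 1775 counts, 15.1 ± 6.29 against 229 ± 48.2 CPM, and fell by 3.92. All 3 had non-overlapping groups. TYROBP lost its call without GFP-HI replicate 1 (log2 fold change -2.07), and FCER1G without GFP-HI replicate 1 (-2.16) or replicate 2 (-2.87). FCGR1A, the high-affinity IgG receptor CD64, did not follow them. It stood at 20.4, 27.5, 47.7 and 9.76 CPM, so that the GFP-HI libraries lay between the GFP-NEG libraries, and its log2 fold change was -0.26 ± 0.53 (adjusted p of 0.75).

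Of the NADPH oxidase genes, the cytosolic subunits and the catalytic membrane subunit fell, whereas the small membrane subunit was not called. NCF1 (p47phox), the organiser of the complex, had 559, 704, 2258 and 2404 counts, or 30.1 ± 6.77 against 307 ± 61.5 CPM (SD, n = 2), and fell by 3.35 ± 0.66 on the log2 scale (edgeR adjusted p = 1.0e-05). NCF4 (p40phox) had 222, 318, 685 and 1066 counts and fell by 3.11. CYBB, counted as GP91-PHOX and encoding the catalytic subunit, had 333, 426, 341 and 684 counts and fell by 1.82 (adjusted p of 0.0026). Its difference was nearly equal in the 2 replicates, -1.75 and -1.78 on the scale log2(CPM + 1), but the call was lost without GFP-HI replicate 1 (-1.44), GFP-HI replicate 2 (-1.98) or GFP-NEG replicate 2 (-1.59). CYBA (p22phox), the membrane partner that also serves other NOX enzymes, had 1533, 2807, 886 and 1131 counts, or 69.5, 139, 138 and 124 CPM. Its log2 fold change was -0.33 ± 0.56 (adjusted p of 0.70), and 3 of its 4 libraries lay close together with GFP-HI replicate 1 below them.

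The macrophage surface and lysosomal genes split. Of 15 tested members, 7 fell, 8 were not called and 0 were higher, with a median log2 fold change of -1.28. CD14, the co-receptor for lipopolysaccharide, had 309, 133, 1437 and 936 counts, or 10.3 ± 5.24 CPM for GFP-HI against 163 ± 85.2 CPM for GFP-NEG (SD, n = 2). It was 15.8-fold lower in GFP-HI (log2 fold change -3.98 ± 0.61, adjusted p of 8.6e-09 in edgeR). MPEG1, the pore-forming protein of phagosomes, had 172, 238, 448 and 600 counts, or 9.80 ± 2.83 against 67.7 ± 2.67 CPM, and fell by 2.79. CLEC7A (dectin-1), a receptor for fungal glucans, had 51, 95, 177 and 180 counts and fell by 2.75. AIF1 (IBA1), an actin-binding protein of macrophages, had 404, 930, 831 and 1280 counts and fell by 2.06, with the call lost without GFP-HI replicate 1 (-1.40).

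The other 3 calls among the surface genes were weak. MRC1, the mannose receptor, had 278, 480, 415 and 347 counts and fell by 1.49 (adjusted p of 0.016, edgeR). Its groups were apart, at 12.6 and 23.8 CPM against 64.4 and 38.0 CPM. It lost the call when either GFP-HI or either GFP-NEG library was left out (log2 fold changes from -1.95 to -0.98). It held with the replicate block in edgeR but not in DESeq2 (-1.52). SIGLEC1 (sialoadhesin), a macrophage lectin for sialic acids, had 478, 245, 475 and 177 counts and fell by 1.46 ± 0.53 (edgeR adjusted p = 0.019), although its groups overlapped (21.7 and 12.2 against 73.7 and 19.4 CPM). CD163, the scavenger receptor for haemoglobin bound to haptoglobin, had 634, 641, 738 and 299 counts and fell by 1.28 ± 0.52 (edgeR adjusted p = 0.040). Its levels were 28.7, 31.8, 115 and 32.8 CPM, so that GFP-NEG replicate 2 was only just above both GFP-HI libraries. With the replicate number as a block neither held (adjusted p of 0.147 for CD163 and 0.055 for SIGLEC1, edgeR). The range over all 13 alternatives was 0.0078 to 0.96 for CD163 and 0.0046 to 0.90 for SIGLEC1. Without GFP-NEG replicate 1 the fold changes were -0.06 for CD163 and -0.15 for SIGLEC1, without GFP-HI replicate 1 -1.11 and -1.84, and without GFP-HI replicate 2 -1.31 and -1.06, all short of the threshold.

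The other 8 tested surface and lysosomal genes were not called. MARCO, a scavenger receptor of alveolar macrophages, had 651, 284, 429 and 60 counts, or 29.5, 14.1, 66.6 and 6.58 CPM, with both GFP-HI libraries between the GFP-NEG ones. VSIG4, a complement receptor of resident macrophages, stood at 30.2 and 28.7 CPM against 84.3 and 16.6 CPM. CD68, a lysosomal glycoprotein, stood at 19.7 and 23.9 CPM against 53.1 and 22.1 CPM. The log2 fold changes were -0.74 for MARCO, -0.77 for VSIG4, -0.78 for CD68 and -0.86 for the scavenger receptor MSR1, with adjusted p-values from 0.25 to 0.38 (edgeR). Without GFP-NEG replicate 1 they were 1.78, 0.88, 0.03 and 0.21, none past the threshold. LYZ, encoding lysozyme, was at 37.1 ± 15.6 against 37.6 ± 3.25 CPM (SD, n = 2), and GPNMB, a lysosomal glycoprotein of lipid-laden macrophages, at 25.7 ± 10.3 against 25.4 ± 12.1 CPM. Their fold changes of -0.02 and 0.02 had standard errors of 0.51 and 0.53. The sign of GPNMB turned under RLE, upper-quartile and plain library-size scaling. TREM2, a lipid-sensing receptor, had 2, 36, 30 and 40 counts with a fitted log2 fold change of -2.27 ± 1.15 that was not called (edgeR adjusted p = 0.11). Without GFP-HI replicate 2, the library with 36 counts, it was -5.41 and past the threshold, and without GFP-HI replicate 1 it was -1.20. CD209, a C-type lectin, had 0, 22, 12 and 2 counts. Its replicates disagreed within both groups, and its log2 fold change of -0.89 ± 1.20 was not called (edgeR adjusted p = 0.61).

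The neutrophil genes also split. MGAM, a maltase-glucoamylase carried by neutrophils as well as by the intestine, had the largest change of all members, with 18, 3, 118 and 210 counts. Its level was 0.482 ± 0.471 against 20.7 ± 3.32 CPM (SD, n = 2), a fall of 41.7-fold in the fit (log2 fold change -5.38 ± 0.81, edgeR adjusted p = 5.8e-09). LTF, the granule protein lactoferrin, had 57, 36, 281 and 474 counts, or 2.18 ± 0.564 against 47.8 ± 5.89 CPM, and fell by 4.45 with replicates close together in both groups. S100A8, a calcium-binding protein abundant in neutrophil cytosol, had 464, 212, 1256 and 254 counts, or 21.0, 10.5, 195 and 27.8 CPM. It fell by 2.82 (adjusted p of 1.1e-05), but GFP-NEG replicate 1 stood far above the other 3 libraries. Without that library the fold change was -0.77, and without GFP-HI replicate 2 it was -2.37, neither past the threshold.

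S100A12, a relative of S100A8 from the same cells, had 2022, 2720, 2723 and 867 counts, or 113 ± 30.6 against 259 ± 232 CPM (SD, n = 2). Its groups overlapped, with GFP-NEG replicate 1 highest at 423 CPM and both GFP-NEG replicate 2 and the GFP-HI libraries at or below 135 CPM. The log2 fold change of -1.19 ± 0.62 was not called (edgeR adjusted p = 0.12) and became 0.30 when GFP-NEG replicate 1 was left out. It passed the threshold under upper-quartile and plain library-size scaling, with fold changes of -1.43 and -1.53. LCN2, a granule protein that epithelial cells also make, had 244, 709, 209 and 115 counts, or 23.1 ± 17.0 against 22.5 ± 14.0 CPM (SD, n = 2), with a fitted value of 0.04 ± 0.54 on the log2 scale (edgeR adjusted p = 0.97), whose sign turned under upper-quartile and plain library-size scaling. MPO, the peroxidase of the primary granules, had 0, 0, 3 and 3 counts and was too low to be tested. It is a gene of precursors in bone marrow more than of circulating neutrophils.

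Both genes of leukotriene synthesis fell. ALOX5, the 5-lipoxygenase that opens the pathway, had 217, 330, 384 and 499 counts, or 13.1 ± 4.62 against 57.2 ± 3.48 CPM (SD, n = 2), and fell by 2.13 ± 0.54 on the log2 scale (edgeR adjusted p = 4.3e-04). ALOX5AP, which presents arachidonic acid to it, had 918, 861, 3289 and 1263 counts and fell by 2.94. Its GFP-HI libraries were almost equal at 41.6 and 42.7 CPM, and its GFP-NEG libraries stood at 511 and 138 CPM. ALOX5 lost its call without GFP-HI replicate 1 (-1.67) and ALOX5AP without GFP-NEG replicate 1 (also -1.67).

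**Figure D2:**
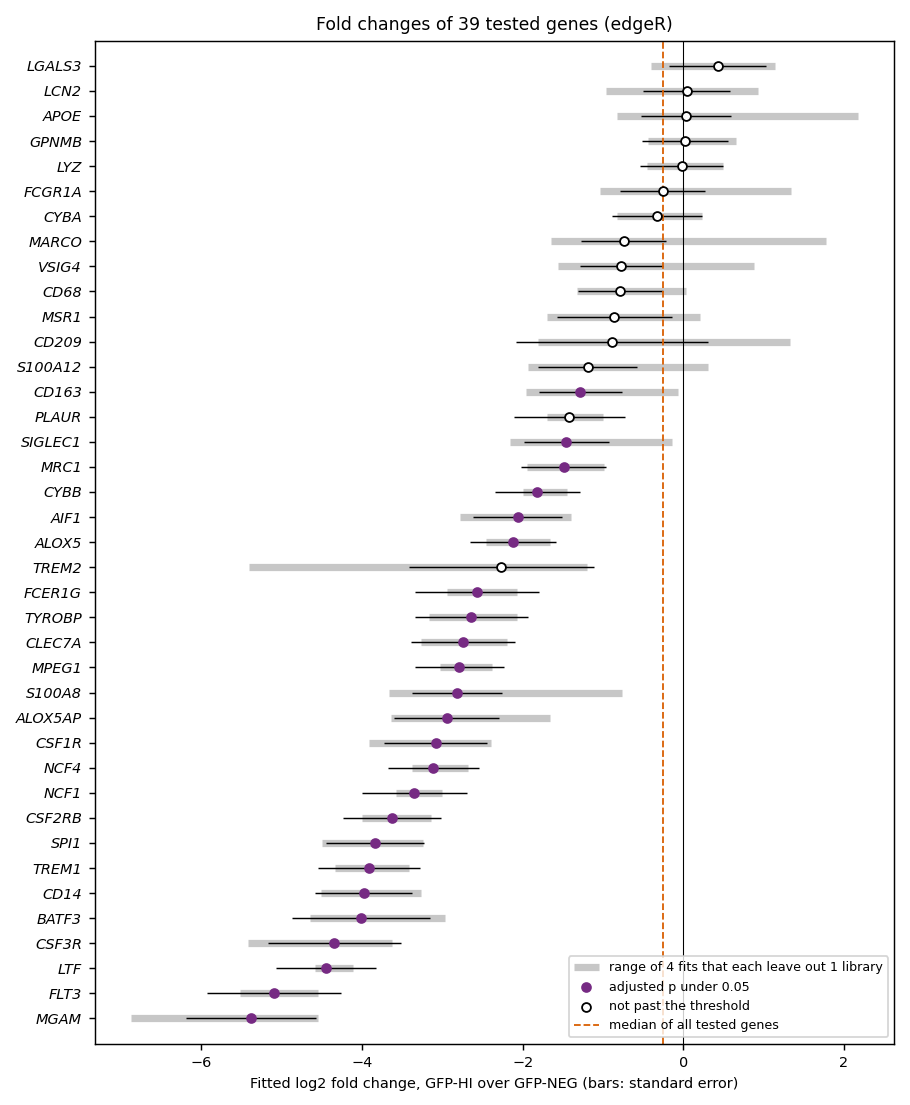
Fitted log2 fold change of each of the 39 tested members (GFP-HI over GFP-NEG) with its standard error as a black bar. Filled points passed an adjusted p of 0.05, and grey bars span the 4 fits that each left out 1 library. MGAM at -5.38 and FLT3 at -5.10 lie lowest, and the grey bars of MARCO, APOE, FCGR1A and CD209 cross 0 widely.

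The 3 members that many other cell types transcribe were not called. PLAUR, the receptor for urokinase, had 3201, 4568, 3490 and 4112 counts, or 186 ± 57.6 against 496 ± 64.4 CPM (SD, n = 2). The groups were apart, but the log2 fold change of -1.42 ± 0.69 was not called (edgeR adjusted p = 0.098). It was called by edgeR under upper-quartile and library-size scaling (-1.74 and -1.85). DESeq2 called PLAUR with the replicate block (adjusted p of 0.012) and without it (0.019). The authors' deposited table holds the same value as DESeq2 without the block. LGALS3, the sugar-binding protein galectin-3, had 2395, 6123, 902 and 1517 counts, or 109, 304, 140 and 166 CPM, with a fitted value of 0.43 ± 0.61 on the log2 scale (edgeR adjusted p = 0.63) that turned to -0.06 under plain library-size scaling. APOE, the lipid carrier apolipoprotein E, had 3627, 1446, 1314 and 247 counts, or 164, 71.7, 204 and 27.1 CPM. Its log2 fold change of 0.03 became 2.18, past the threshold, without GFP-NEG replicate 1, and -0.83 without GFP-NEG replicate 2. Its sign also turned under upper-quartile and plain library-size scaling.

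The 2 replicates gave the same sign for 26 of the 39 tested members and opposite signs for 13. In replicate 1 all 39 were lower in GFP-HI, with a median difference of -2.38 on the scale log2(CPM + 1). In replicate 2 26 were lower, with a median of -1.59. Over all tested genes the medians were -0.16 and -0.33, 55.9% and 57.1% were below 0, 46.5% were below 0 in both replicates and 20% had opposite signs. The 13 members with opposite signs were CD68, MARCO, MSR1, VSIG4, CD209, GPNMB, LYZ, FCGR1A, CYBA, S100A12, LCN2, APOE and LGALS3. All 13 had overlapping groups, which opposite signs force by themselves. Of these 13, 0 were called by edgeR, by DESeq2 or at an unadjusted p under 0.05 in edgeR, an outcome that opposite signs favour. Their differences ran from -2.19 to -0.31 in replicate 1 and from 0.11 to 1.41 in replicate 2. For 12 of the 13, every one but LGALS3, GFP-NEG replicate 1 was higher than GFP-NEG replicate 2, as it was for 31 of all 39 tested members, and for 10 of them GFP-HI replicate 2 was higher than GFP-HI replicate 1. With plain CPM, scaled by the library total alone, 39 members were below 0 in replicate 1 and 30 in replicate 2.

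**Figure D3:**
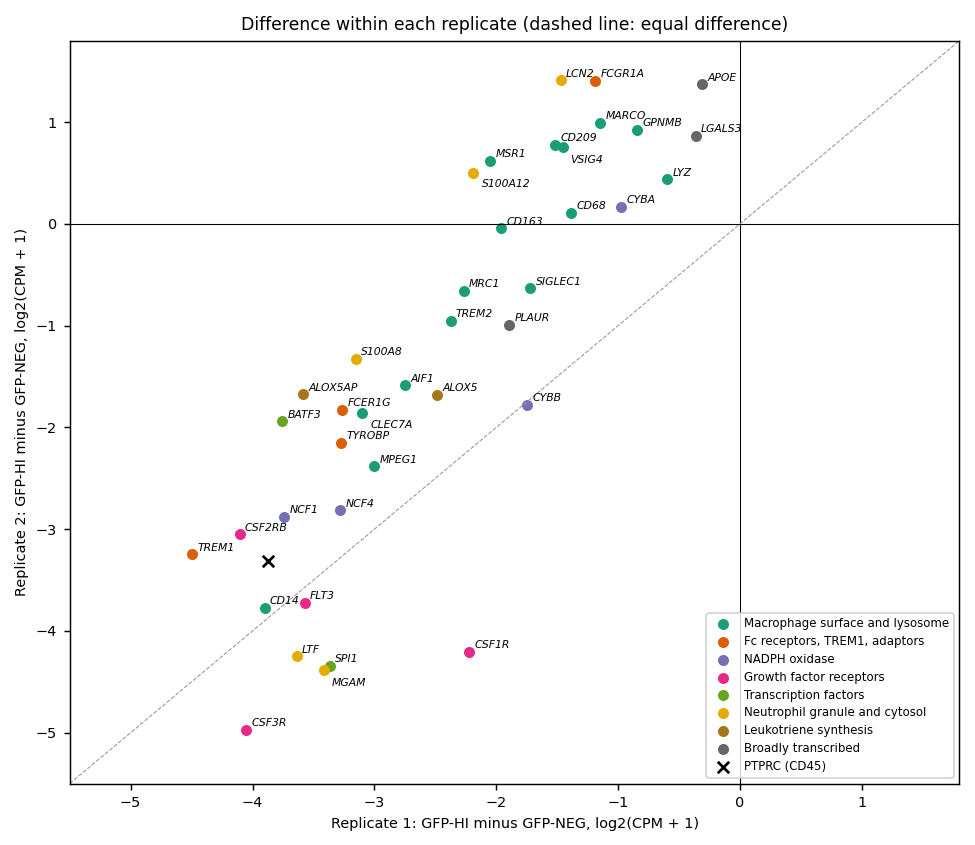
Difference between GFP-HI and GFP-NEG in log2(CPM + 1) within replicate 1 (horizontal axis) and replicate 2 (vertical axis) for the 39 tested members, coloured by role, with PTPRC as a cross. All points lie left of 0, and 13 lie above 0 on the vertical axis, among them MARCO, VSIG4 and FCGR1A, while CSF3R lies lowest in replicate 2 at -4.97.

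PTPRC encodes CD45, carried by all leukocytes, and served as a yardstick for leukocyte transcripts in general. Its difference was -3.87 in replicate 1 and -3.32 in replicate 2 on the scale log2(CPM + 1). The medians over all tested genes were -0.16 and -0.33, so most genes, members or not, lay above PTPRC in each replicate. The share of all genes above it in both replicates was not counted. Of the 39 tested members, 30 had a difference above that of PTPRC in both replicates, 2 (CD14 and CSF3R) had one below it in both, and 7 were mixed. The count depends on the scale: by fitted log2 fold change, 9 members lay below PTPRC (-3.51), namely MGAM, FLT3, LTF, CSF3R, BATF3, CD14, TREM1, SPI1 and CSF2RB. Relative to PTPRC, MARCO was higher in GFP-HI by 2.72 and 4.31, APOE by 3.56 and 4.69, and LYZ by 3.27 and 3.75 in replicates 1 and 2. CSF3R was at -0.18 and -1.65 in the same terms. SPI1 was at 0.51 and -1.03 and CSF1R at 1.65 and -0.89, so these 2 differed in direction between replicates. These ratios are descriptions and were not tested. On this log2(CPM + 1) scale the differences of low genes such as FLT3 and MGAM are understated.

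The growth factors for these receptors did not move as one. Of the 5 tested, 1 rose, 1 fell and 3 were not called. IL34, an alternative ligand of CSF1R, was higher in GFP-HI, with 1270, 1094, 119 and 74 counts and a rise of 2.08 ± 0.54 on the log2 scale (edgeR adjusted p = 6.4e-04), which was 1.56 and short of the threshold without GFP-NEG replicate 2. CSF1, the main ligand of CSF1R, fell 2.58-fold (21.2 against 54.9 CPM, edgeR adjusted p = 0.027). It was called in 6 of 13 alternatives, with fold changes from -1.79 to -0.85 when 1 library was left out. CSF3, the ligand of CSF3R, had 25, 1, 11 and 61 counts and a log2 fold change of -2.81 that was not called (edgeR adjusted p = 0.057). It was called lower in 3 of 13 alternatives, among them the fits without GFP-HI replicate 1 (-5.97) and without GFP-NEG replicate 1, and stood at -1.55 without GFP-NEG replicate 2. KITLG, the ligand of the receptor KIT, was not called (log2 fold change 0.50) and ranged from -0.39 without GFP-NEG replicate 2 to 2.86 without GFP-NEG replicate 1, the only 1 of 13 alternatives that called it (higher).

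The oxidase genes outside the members were mixed. Of 6 tested, 2 fell, 1 rose and 3 were not called. RAC2, the blood-cell GTPase that switches the phagocyte oxidase on, fell by 3.58 on the log2 scale (edgeR adjusted p = 8.9e-05). NOX4, a catalytic subunit found in fibroblasts and endothelium and a partner of CYBA, rose by 2.25 (37.1 against 7.79 CPM, adjusted p of 5.1e-04), with 2.00 and no call without GFP-NEG replicate 2. RAC1, the widely transcribed relative of RAC2, was at 31.3 and 31.5 CPM.

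Of 18 other macrophage and monocyte genes tested, 11 fell, 1 rose and 6 were not called, with a median log2 fold change of -1.73. By the rule of highest mean level the named ones are LAPTM5, CTSS, C1QC and C1QB. LAPTM5, a lysosomal protein of blood cells, fell by 3.21 (adjusted p of 1.5e-04, edgeR). CTSS, the lysosomal protease cathepsin S, was not called, at -0.56 (0.04 without GFP-HI replicate 1). The complement gene C1QC, a product of tissue macrophages, was not called either, with differences of -1.64 and 0.89 in replicates 1 and 2. C1QB fell 2.84-fold (edgeR adjusted p = 0.039) but stood at 0.065 on the log2 scale without GFP-NEG replicate 1 and was called in 5 of 13 alternatives. CCR2 and ITGAM, genes of monocytes and newly recruited cells chosen after their values were seen, fell by 4.60 and 3.88.

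Of 9 other myeloid transcription factors tested, 4 fell and 5 were not called, with a median of -0.87. ID2 fell by 2.20 (adjusted p of 0.013, edgeR), but not without GFP-HI replicate 2 (-1.72) or GFP-NEG replicate 2 (-2.21). IRF8, KLF4 and RUNX1, which act in other cell types too, were at -0.87, -0.79 and -0.69 and were not called. Of 7 other neutrophil genes tested, 5 fell and 2 were not called, with a median of -4.26. MMP9, a granule protease, fell by 4.99 on the log2 scale, and PGLYRP1, a granule protein, fell by 2.36. Of 5 other leukotriene genes tested, 2 fell and 3 were not called, with a median of -1.54. The receptor CYSLTR2 fell by 3.45 and the receptor LTB4R fell by 3.38. Among those not called, the enzyme LTA4H, which many cell types make, was at 1.12 and LTC4S at -1.36.

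**Figure D4:**
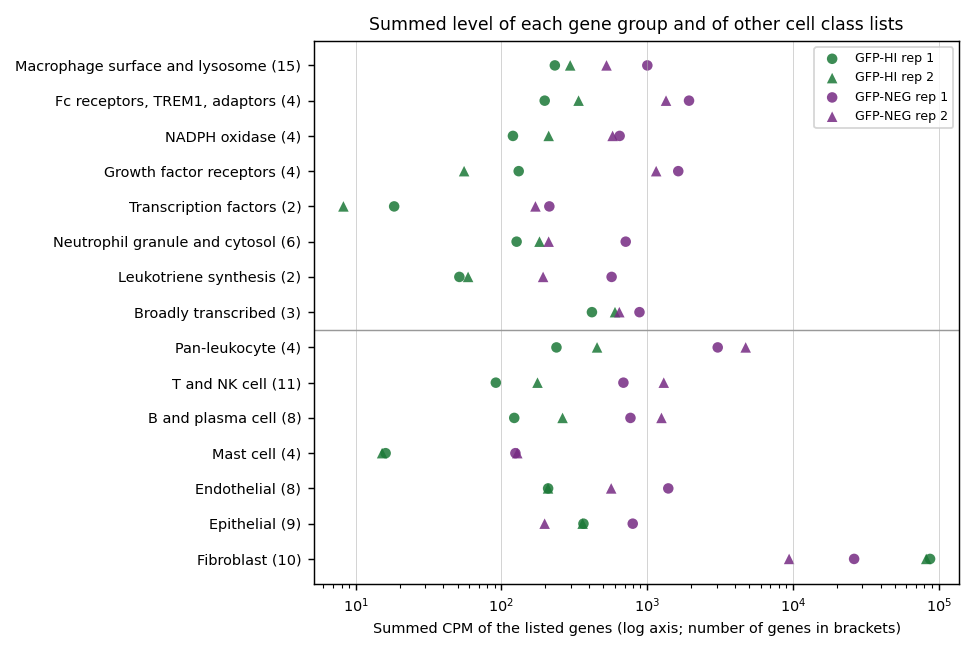
Summed CPM (log axis) of the 8 role groups of members and, below the line, of lists for other cell classes, 1 point per library, with the number of genes in brackets. Green points (GFP-HI) lie left of purple ones for the immune lists and right of them for the fibroblast list.

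Markers of other cell classes, apart from the epithelial ones, moved with the groups. Of all tested genes, 27.6% were called lower in GFP-HI and 8.35% higher. The 4 pan-leukocyte genes all fell, from summed levels of 3050 and 4745 CPM in GFP-NEG to 239 and 453 CPM for GFP-HI. T and NK cell genes fell in 10 of 11 (sums of 687 and 1300 CPM in GFP-NEG, 91.5 and 177 CPM in GFP-HI), B and plasma cell genes in 6 of 8 (768 and 1254 against 122 and 263 CPM), and mast cell genes in 4 of 4 (125 and 128 against 16.0 and 15.2 CPM). Endothelial genes fell in 7 of 8 (1396 and 567 against 209 and 209 CPM), and fibroblast genes rose in 7 of 10 (26332 and 9428 CPM for GFP-NEG, 87444 and 82322 CPM for GFP-HI). Epithelial genes fell in 2 of 9, with overlapping sums (796 and 198 CPM for GFP-NEG, 365 and 361 CPM for GFP-HI). No gene of these lists was at 0 in both GFP-HI libraries. The part of these cell classes in the values of the macrophage and neutrophil genes was not tested. The GFP-NEG libraries also differed from each other: the endothelial, fibroblast and macrophage surface sums were higher in replicate 1 and the T, B and pan-leukocyte sums in replicate 2.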

How the data were processed

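RNA was sequenced from 2 GFP-HI and 2 GFP-NEG libraries. The authors deposited raw counts per gene; per the submitters' processing notes, featureCounts, Subread 1.5.2 and DESeq2 1.37.6 were used, while aligner, build and strand setting are not given in the sources used here, so overlapping genes and close copies are uncertain. Their deposited comparison table lists 16250 genes with a normalized mean signal, log2 fold change, a test statistic (score), p-value and adjusted p-value, per the file headers. Its 4 columns of normalized values per sample were not used, because 2 headings disagree with the counts. Its count columns equal those of the single libraries.

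Counts were tested with edgeR 4.0.16 (R 4.3.3; TMM, filterByExpr, quasi-likelihood F test, Benjamini-Hochberg over 19682 genes, threshold 0.05), with group as the only term. Standard errors were taken from the fold change and F statistic. The genewise spread was shrunk fully to the trend (common dispersion 0.239). Differences within a replicate use log2(CPM + 1). The procedure was tested on counts simulated with the common dispersion for every gene and no pairing. That test does not cover the replicate differences seen here. DESeq2 1.42.0 was an alternative. The titles number biological replicates and the deposited headings name pig 1 and pig 2, which reads as 1 pig per number; deviations of same-numbered libraries correlated at 0.19 across genes. Nothing else says that libraries are independent. With the genewise spread shrunk to the trend, edgeR p-values and standard errors reflect the spread of genes at a similar level. They do not reflect the scatter between a gene's own 2 libraries per group.

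The members, lists and tests were chosen with earlier results of these data known. Counts are given for called members and for those with a mean of at least 100 CPM in either group; from other lists the up to 4 genes with the highest mean CPM are named, apart from some genes that are not reported here. FLT3LG was left out because its identifier is paired with another gene in RefSeq.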

Additional observations from a re-analysis of the deposited data

How the results depend on the processing

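In 9 alternatives with all 4 libraries, the count of lower members stayed between 22 and 26, and 21 of the 24 calls held in every one; 13 held in all 13 alternatives. The replicate block gave 22 lower members (22 shared), losing CD163 and SIGLEC1, and changed no other member call. Over the 9 alternatives with all 4 libraries, lower genes in all numbered 3194 to 6136. The number of genes fitted also varied, from 16493 to 26737 in these alternatives. In the fits leaving out 1 library it was 17541 to 21447, lowest without GFP-NEG replicate 2. Leaving out 1 library, which leaves a lone library assumed to vary like the other group, gave 16 to 22 lower members, 0 to 1 higher member (APOE), 1575 to 4999 lower genes and 216 to 1635 higher genes in all, both lowest without GFP-NEG replicate 2. Higher genes in all numbered 1083 under upper-quartile and 888 under library-size scaling, and DESeq2 with the replicate block (chosen after the data were seen) gave 3194 lower genes. The cause was not tested. The median over all 19682 genes, -0.25 with TMM, moved to -0.58 with upper-quartile scaling and to -0.68 with none beyond library size.

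The sign turned, never past the threshold unless stated, for 13 members and 0 of the called ones. GPNMB was at -0.016 under RLE, -0.27 under upper-quartile, -0.38 under library-size scaling, -0.019 with at least 1 CPM in 2 libraries and -0.066 after thinning. LCN2 was at -0.23 (upper quartile), -0.36 (library size), -0.040 (replicate block) and -0.046 (DESeq2 with block). APOE was at -0.18, -0.23 and -0.13 (upper quartile, library size, thinning), LGALS3 at -0.057 (library size), LYZ at 0.034 and RAC1 at 0.046 without a filter, and FCGR1A at 0.11 (replicate block) and 0.12 (DESeq2 with block). Over fits leaving out 1 library, the ranges were -0.83 to 2.18 for APOE (past the threshold at 2.18), -1.80 to 1.33 for CD209, -1.32 to 0.030 for CD68, -0.83 to 0.23 for CYBA, -1.03 to 1.34 for FCGR1A, -0.44 to 0.66 for GPNMB, -0.97 to 0.92 for LCN2, -0.40 to 1.13 for LGALS3, -0.45 to 0.49 for LYZ, -1.65 to 1.78 for MARCO, -1.70 to 0.21 for MSR1, -1.94 to 0.30 for S100A12 and -1.56 to 0.88 for VSIG4. Outside the members they were -1.91 to 0.47 for C1QA, -2.27 to 0.065 for C1QB, -1.69 to 0.95 for C1QC, -0.44 to 2.44 for CHI3L1 (past the threshold at 2.44), -1.15 to 0.040 for CTSS, -0.39 to 2.86 for KITLG (past the threshold at 2.86) and -0.070 to 0.17 for RAC1. At 0.110 to 0.155 CPM per count, the shallow GFP-NEG libraries resolve low genes such as CD209 and MPO only coarsely. The counts of 0 for these genes lay in the deeper GFP-HI libraries.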

Other observations

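Of the 18 other macrophage genes tested, FOLR2 was the only one called higher in GFP-HI, a gene picked here because of its values. FOLR2 encodes a folate receptor best known from resident tissue macrophages. In the order GFP-HI replicates 1 and 2, GFP-NEG replicates 1 and 2, it had 3749, 7890, 385 and 146 counts, or 170, 391, 59.8 and 16.0 CPM. Its log2 fold change was 2.89 ± 0.64 with an adjusted p of 9.1e-05 in edgeR, and it was 2.19 and short of the threshold without GFP-NEG replicate 2. CHI3L1, a chitinase-like protein of neutrophils, macrophages and other cells, had 6008, 39053, 3372 and 2282 counts in the same order. Its groups overlapped, and its log2 fold change of 1.51 was not called (adjusted p of 0.14, edgeR). Without GFP-HI replicate 1 it was 2.44 and past the threshold, and without GFP-HI replicate 2 it was -0.44.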
